A study of Oryza sativa with 6 samples.

Results

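The genes described are those of starch synthesis and breakdown in rice leaves that carry the names *SS1*, *AGPS2*, *AGPS1*, *AGPL1*, *AGPL3*, D-enzyme and *GWD3*. These 7 names were looked up among the symbols and synonyms of a rice gene table, where 4 were found and 3 (*AGPS1*, *AGPL1* and *AGPL3*) were not, so the latter are not analysed here. As D-enzyme is a synonym of both *DPE1* and *DPE2*, 5 genes were obtained of the 17905 with a probe set on the array, each with 1 probe set. The 6 Affymetrix rice arrays hold total leaf RNA of *Oryza sativa* variety PB1, 3 from wild-type (WT) and 3 from MADS29 OX (overexpression; here MADS29OX) plants, taken in every case at leaf positions 3 and 4 below the flag leaf. MADS29OX plants carry an *OsMADS29* cDNA under the control of a ubiquitin promoter that is active in most tissues, and *OsMADS29* itself encodes a MADS-box transcription factor known from developing seeds. MADS29OX plants were stunted with small, thin leaves and flowered early, so whether leaves of the same position were of the same age is not known. Neither the age of the plants, the harvest time nor the number of transgenic lines behind the 3 arrays is given in the sources used here. The spread that the p-values measure may thus be technical in part, and in leaf RNA a lower share of a cell type and less RNA per cell cannot be told apart.

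Starch is made in plastids from ADP-glucose, which ADP-glucose pyrophosphorylase supplies and starch synthases add to growing glucan chains, while branching enzymes set the branch points of amylopectin. In leaves it builds up in chloroplasts by day and is broken down at night, which in Arabidopsis begins with phosphorylation of the glucan by the dikinases GWD and PWD, and proceeds through β-amylase to maltose. Disproportionating enzymes (D-enzymes) then transfer glucosyl units between short glucans, DPE1 in the plastid and DPE2, which uses maltose, in the cytosol.

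On these arrays the transcript of the overexpressed gene was at signals of 6.70, 6.37 and 6.64 in WT and 2016, 1788 and 3590 in MADS29OX leaves. As WT signals lay below 16, the floor to which all values were raised before log2 was taken, this is at least 147-fold higher (adjusted p = 0.000139 by limma). The share of probe sets that exceeded the floor was 21.6% to 21.9% per array. The WT arrays correlated with one another at 0.992 to 0.997 and the MADS29OX arrays at 0.936 to 0.969, so the MADS29OX group was the more variable. Of a list of leaf genes 6 of 7 were above the floor on at least 1 array, whereas 9 of 11 genes of the endosperm list, 3 of 4 of the root list and 10 of 12 of the panicle and flower list were at the floor on all arrays. The exceptions in the endosperm list were *GLB1* (121 to 160) and *GLUA2* (54.6 to 77.0), those in the panicle list were *MADS16* and *MADS2* (highest signal of 24.5), and that in the root list was *PHT1-8* (highest signal of 17.4), all named after their values were seen. *MADS16*, a floral organ identity gene, was 2.35-fold lower and passed the call used below, with signals of 67.0 to 71.7 in WT and 23.0 to 38.8 in MADS29OX leaves (log2 fold change of -1.23, adjusted p = 0.00770 by limma). The signals of the endosperm list summed to 284 to 291 in WT and 235 to 270 in MADS29OX leaves, and those of the panicle list to 135 to 139 and 92.1 to 108. The part of these shifts in the results below was not tested.

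Of the 5 starch genes, 1 was called lower in MADS29OX leaves and 0 were called higher, where calling a gene with limma required both a 2-fold change or more and an adjusted p not above 0.05. Over all 10045 tested genes, 5.03% were called lower and 5.05% higher. The called gene was *SS1*. With the fold limit dropped, 3 of the 5 passed the adjusted p, all of them lower (*SS1*, *DPE2* and *GWD3*). Of all tested genes 15.1% did so in the lower direction. All 5 log2 fold changes were below 0, as were 51.3% of those of all tested genes. Their median was -0.41, against -0.01 for all tested genes. With 5 genes, chosen with earlier results of these arrays known, such counts describe these genes only.

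**Figure D1:**
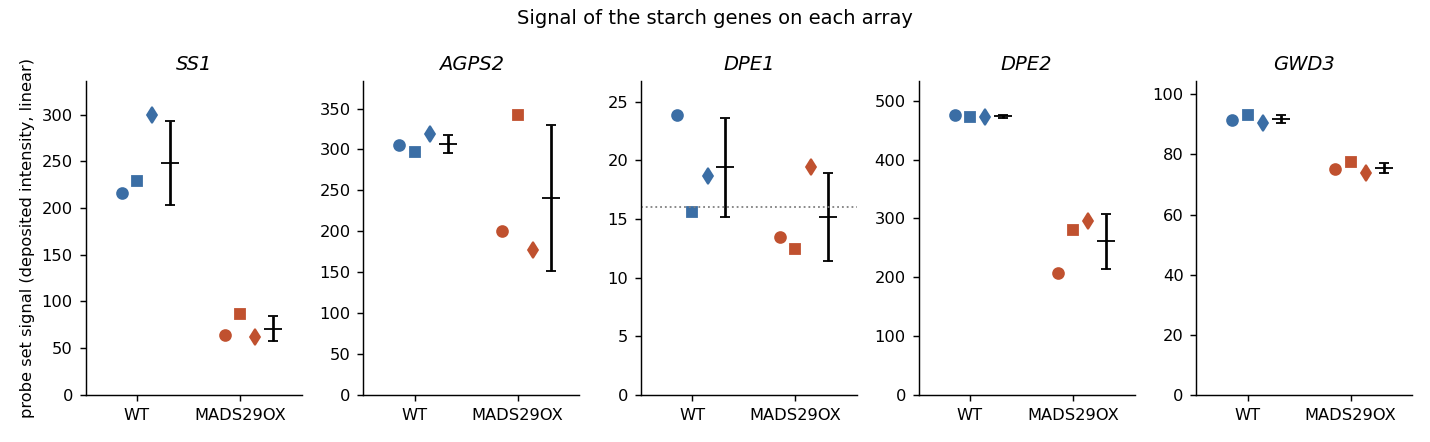
Deposited probe set signal (linear scale, vertical axis from 0) of the 5 starch genes on the 3 WT (blue) and 3 MADS29OX (red) arrays; circle, square and diamond are replicates 1, 2 and 3, the black bar is the mean ± SD (n = 3), and the dotted line for *DPE1* is the floor of 16. The groups do not overlap for *SS1*, *DPE2* and *GWD3*, and they overlap for *AGPS2* and *DPE1*.

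*SS1* (LOC9269493) encodes starch synthase I, which elongates the short chains of amylopectin. Its signal was 216, 229 and 300.0 on the WT arrays and 64.5, 86.4 and 62.0 on the MADS29OX arrays. Every MADS29OX value thus lay below every WT value, and the highest WT signal came from replicate 3. The mean signal was 248 ± 45.1 (SD, n = 3) in WT and 71.0 ± 13.4 (SD, n = 3) in MADS29OX leaves, so *SS1* fell, with a log2 fold change of -1.81 (95% interval from -2.26 to -1.35, standard error 0.19, adjusted p = 0.00189 by limma), or 3.50-fold lower. The 2-sided exact permutation test of the same values gave p = 0.1, below which a design of 3 against 3 cannot go. Of all tested genes 1.24% had a lower log2 fold change. The study itself named this gene for these arrays, so its direction here is no independent evidence. Beside *SS1* the study lists *AGPase SS1* and *AGPase LS1* as downregulated and sucrose synthase as upregulated. Which ADP-glucose pyrophosphorylase genes those names stand for was not checked. Without any 1 of the arrays the log2 fold change of *SS1* lay between -1.96 and -1.66 and the call was kept. It was lost (adjusted p = 0.0569) when the 43020 probe sets at the floor on all arrays were added to the test. These have no spread after the floor, so they also alter the variance that limma shares between probe sets. In that fit the standard error of *SS1* was 0.21.

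*AGPS2* encodes a small subunit of ADP-glucose pyrophosphorylase, and in rice its transcripts AGPS2a and AGPS2b give the plastidial form of leaves and the cytosolic form of endosperm. Its probe set is of the kind designed against several transcripts of 1 gene, so these forms cannot be told apart here. The WT arrays gave signals of 305, 297 and 318, and the MADS29OX arrays 201, 343 and 178. MADS29OX replicate 2 lay above all WT arrays, while the other two lay below all of them. The mean was 307 ± 10.8 (SD, n = 3) in WT and 240.2 ± 89.3 (SD, n = 3) in MADS29OX leaves, and the log2 fold change was -0.41 (95% interval from -1.03 to 0.20, standard error 0.25, adjusted p = 0.280 by limma). The interval spans both no change and a 2-fold decrease. Without MADS29OX replicate 2 the log2 fold change was -0.70 (adjusted p = 0.00404), without MADS29OX replicate 1 it was -0.31 and without MADS29OX replicate 3 it was -0.23 (adjusted p = 0.544). Replicate 2 thus decided whether *AGPS2* passed the adjusted p, but the fold limit was reached in none of these fits. With array weights, which gave MADS29OX replicate 2 the lowest weight of the 6 arrays, the value was -0.60 (adjusted p = 0.0344).

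The spread of *AGPS2* on the MADS29OX arrays was wide, with an SD of log2 values of 0.50 against 0.051 in WT leaves. Of all tested genes 87.5% had a smaller SD among the MADS29OX arrays. For *GWD3* this share was 6.54%, for *DPE1* 33.1%, for *SS1* 56.7% and for *DPE2* 60.0%. Among the WT arrays the share was 95.8% for *SS1* and 97.4% for *DPE1*, but 8.93% for *DPE2*, 13.4% for *GWD3* and 30.6% for *AGPS2*. The median SD of all tested genes was 0.079 in WT and 0.23 in MADS29OX leaves.

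*DPE2* (LOC4344192), the D-enzyme gene of the cytosol, gave 476, 472 and 473 in WT leaves, the most even WT values of the 5 genes. On the MADS29OX arrays the signals were 207, 281 and 295. The groups did not overlap, and MADS29OX replicate 1 was the lowest array. The mean was 474 ± 2.42 (SD, n = 3) in WT and 261 ± 47.2 (SD, n = 3) in MADS29OX leaves. The log2 fold change was -0.88 (95% interval from -1.24 to -0.51, standard error 0.15, adjusted p = 0.00949 by limma), a ratio of 1.84, so *DPE2* passed the adjusted p but stayed under the fold limit. The exact permutation test again gave p = 0.1. Without MADS29OX replicate 3 the value was -0.97 and without MADS29OX replicate 1 it was -0.72, under 2-fold in both cases. The adjusted p was above 0.05 in 2 of 19 alternatives, namely with all probe sets tested (adjusted p = 0.146) and with 16 added to each value in place of the floor (adjusted p = 0.0741). The latter fit also took in all probe sets, so the part of the added 16 alone was not tested.

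*DPE1* (LOC4343975), the plastid D-enzyme gene, was close to the floor. Its WT signals were 23.9, 15.6 and 18.7 and its MADS29OX signals were 13.5, 12.5 and 19.4, so 1 WT and 2 MADS29OX arrays were at the floor and the groups overlapped. The log2 fold change of -0.17 (adjusted p = 0.500 by limma, standard error 0.17) is shrunk by the floor and was -0.36 with no floor (adjusted p = 0.272). Without WT replicate 1 it was -0.02. With WT signals this close to the floor, a decrease of *DPE1* could not be measured. The floor does not limit an increase in this way, and the upper end of the 95% interval was 0.25.

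*GWD3* (LOC4352028) is listed with the synonym PWD, phosphoglucan, water dikinase, which in Arabidopsis phosphorylates glucans that GWD has already phosphorylated. Its signals were 91.4, 93.2 and 90.5 in WT and 75.2, 77.4 and 74.0 in MADS29OX leaves. The values were tight in both groups and did not overlap. The mean was 91.7 ± 1.38 (SD, n = 3) in WT and 75.5 ± 1.72 (SD, n = 3) in MADS29OX leaves, and the log2 fold change was -0.28 (95% interval from -0.45 to -0.11, standard error 0.069, adjusted p = 0.0326 by limma). The interval lies well inside the 2-fold limit, so the change of *GWD3* was small as well as uncalled. Its adjusted p was above 0.05 in 9 of 19 alternatives, among them each fit without 1 WT array (0.102 to 0.124) and the replicate block fit, which takes same-numbered arrays together (adjusted p = 0.138).

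Non-overlapping groups with the lower values in MADS29OX leaves were thus seen for 3 of the 5 starch genes (*SS1*, *DPE2* and *GWD3*). This was so for 26.5% of all tested genes.

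To set these genes in their pathway, a list of 23 starch genes matched by name was used, which includes the 5 above. The names sought were those of ADP-glucose pyrophosphorylase, starch synthases, branching and debranching enzymes, D-enzymes, glucan phosphorylation, amylases, sugar supply and export, and regulators. Of ADP-glucose pyrophosphorylase and glucan phosphorylation only *AGPS2* and *GWD3* were found. Of the branching and debranching genes found by name only *SBE1* had a probe set, and the amylases found were α-amylases. Whether *PGI-A* and *PGI-B*, of sugar supply, encode plastid or cytosolic enzymes was not checked. Of the 23 genes, 21 had a probe set of their own. Above the floor on at least 1 array, and thus tested, were 14, and 1, *SS1*, was called lower. With limma 0 were called higher. Over all tested genes these shares were 5.03% and 5.05%. With the fold limit dropped, 7 passed the adjusted p alone. Of those 7, 6 were lower and 1 was higher, against 15.1% and 11.4% of all tested genes by the adjusted p alone. The median log2 fold change of the 14 genes was -0.33, and that of the 9 genes outside the 5 was -0.14.

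**Figure D2:**
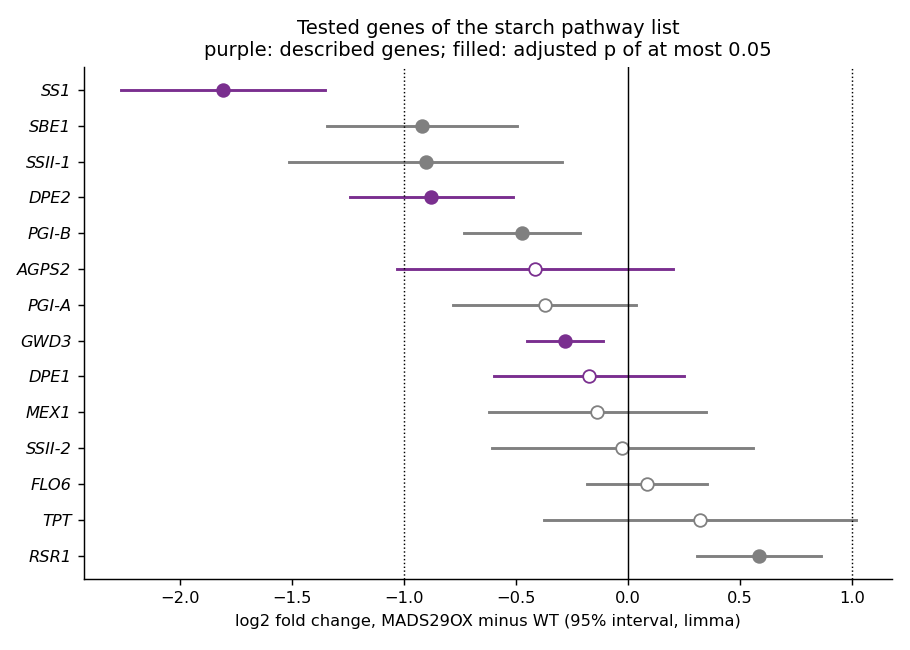
Log2 fold change (MADS29OX minus WT, horizontal axis) of the 14 tested genes of the starch pathway list, with 95% intervals from limma; the 5 described genes are purple, filled circles passed an adjusted p of at most 0.05, and dotted lines mark a 2-fold change. Only the point of *SS1* lies beyond a dotted line, and *RSR1* is the filled circle on the right.

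Among the other starch synthase genes, *SSII-1* (LOC4348711) had WT signals of 45.5, 40.7 and 51.6 and MADS29OX signals of 32.5, 26.3 and 17.1. Its log2 fold change was -0.90 (adjusted p = 0.0454 by limma, standard error 0.25), with no overlap between the groups. *SSII-2* differed from both *SS1* and *SSII-1*: its signals of 185, 165 and 210 in WT and 159, 260 and 147 in MADS29OX leaves overlapped, with a log2 fold change of -0.03 (95% interval from -0.61 to 0.56). MADS29OX replicate 2 was again the highest array, as for *AGPS2*. The granule-bound starch synthase gene *WX1* and *SSII-3*, which act mainly in endosperm, were at the floor on all arrays with every probe set. No gene was found under the other starch synthase names sought, among them GBSS2 and forms of SSIII and SSIV, so those were not measured here. *SSII-1*, *SSII-2*, *WX1* and *SSII-3* were named after their values were seen, as were *PGI-B*, *MEX1* and *FLO6* below.

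The branching enzyme gene *SBE1* (LOC4342117) gave WT signals of 165, 153 and 180 and MADS29OX signals of 107, 90.4 and 69.3. These groups did not overlap, and the log2 fold change was -0.92 (adjusted p = 0.0135 by limma, standard error 0.17). It has 8 probe sets, of which 4 were above the floor. The brightest, used here, is of the kind that can share probes with other genes. The other 3 of those had log2 fold changes of -0.81, -0.75 and -0.44. Leaving out the probe sets that can share probes gave -0.81 for *SBE1*. Both *SBE1* and *SSII-1* lay just inside the fold limit, and without MADS29OX replicate 1 they were called lower (-1.06, adjusted p = 0.00854, and -1.11, adjusted p = 0.0216). Without MADS29OX replicate 3 the values were closer to 0, at -0.75 for *SBE1* and -0.65 for *SSII-1*. The adjusted p of *SSII-1* was above 0.05 in 7 of 19 alternatives, among them each fit without 1 WT array (0.101 to 0.150) and the replicate block (0.0901), and with a floor of 32 its log2 fold change was -0.51. For *SBE1* it was above 0.05 in 4 of 19 alternatives, among them the fits without WT replicate 1 (0.0578) and without WT replicate 3 (0.0611).

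Of the genes for sugar supply and export, *PGI-B*, a phosphoglucose isomerase gene, was at -0.47 on the log2 fold change scale (adjusted p = 0.0241 by limma, standard error 0.11). With a floor of 32 it was at -0.21 (adjusted p = 0.108), and its adjusted p was above 0.05 in 7 of 18 alternatives, among them the replicate block (0.0823) and each fit without 1 WT array (0.0509 to 0.101). *TPT*, the triose phosphate translocator gene of the chloroplast envelope, had signals of 506, 542 and 499.6 in WT and 446, 982 and 610 in MADS29OX leaves. Its groups overlapped (log2 fold change of 0.32, adjusted p = 0.452), and the value was 0.59 without MADS29OX replicate 1 (adjusted p = 0.108) and 0.02 without MADS29OX replicate 2. For the maltose exporter gene *MEX1* the log2 fold change was -0.14 (adjusted p = 0.649). The 5 amylase genes with a probe set of their own all encode α-amylases and were at the floor on all arrays. The brightest was *AMY2A*, with a highest signal of 7.40. No β-amylase gene was found by name, so the β-amylase step of leaf starch breakdown was not measured here.

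*RSR1* (LOC4337654), which encodes an AP2-type factor described in rice seeds as a negative regulator of starch synthesis genes, was the 1 gene of the list that passed the adjusted p in the higher direction, as did 11.4% of all tested genes. Its signals were 176, 186 and 166 in WT and 259, 236 and 299 in MADS29OX leaves, without overlap. The log2 fold change was 0.58 (adjusted p = 0.0149 by limma, standard error 0.11) and thus under the fold limit. The adjusted p was above 0.05 in 5 of 18 alternatives, among them the replicate block (0.0644) and the fits without WT replicate 1 (0.0650) and without WT replicate 3 (0.0659). Its probe set is of the kind that can share probes with other genes, so no value remained without such probe sets. *FLO6*, which encodes a starch-binding protein of rice endosperm, was near the floor with a log2 fold change of 0.08 (adjusted p = 0.612).

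Beside these values, the leaf genes used as markers moved both ways. Of 6 tested, 2 were called higher, namely *LIR1* (log2 fold change of 4.72) and *CAB2R* (1.46), and 1 was called lower, *CFBP1* (-1.66), the cytosolic fructose-1,6-bisphosphatase gene of sucrose synthesis. Mean signals in WT and MADS29OX leaves were 175 and 4547 for *LIR1*, and 2525 and 7073 for *CAB2R*. Those of *RCA*, the brightest of the list, were 12725 and 10561. Its log2 fold change was -0.27 (adjusted p = 0.0446 by limma), which was not called. The summed signal of the leaf list, which mixes genes that moved both ways, was 23019 to 23257 in WT and 28035 to 35047 in MADS29OX leaves. The part of this shift in the lower *SS1* signal was not tested.

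Over the 6 arrays the log2 values of *SS1* correlated at 0.97 with *GWD3*, 0.93 with *DPE2*, 0.70 with *AGPS2* and 0.32 with *DPE1*. This is a description over arrays that share the group difference. Of the 1554 other tested genes with a name, those with the profile most like *SS1* were the glutathione S-transferase gene *GSTZ5* (Pearson's r of 0.997 over 6 arrays), *ISPH* (0.995), which encodes an enzyme of the plastid isoprenoid pathway, and the kinesin gene *KIN4A* (0.994). *GSTZ5* had signals of 361, 361 and 408 in WT and 123, 160.4 and 122 in MADS29OX leaves. The log2 fold changes were -1.49 for *GSTZ5* and -1.07 for *KIN4A*, both called lower, and -0.30 for *ISPH*. In all, 114 named genes had an r of at least 0.95 with *SS1*.

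**Figure D3:**
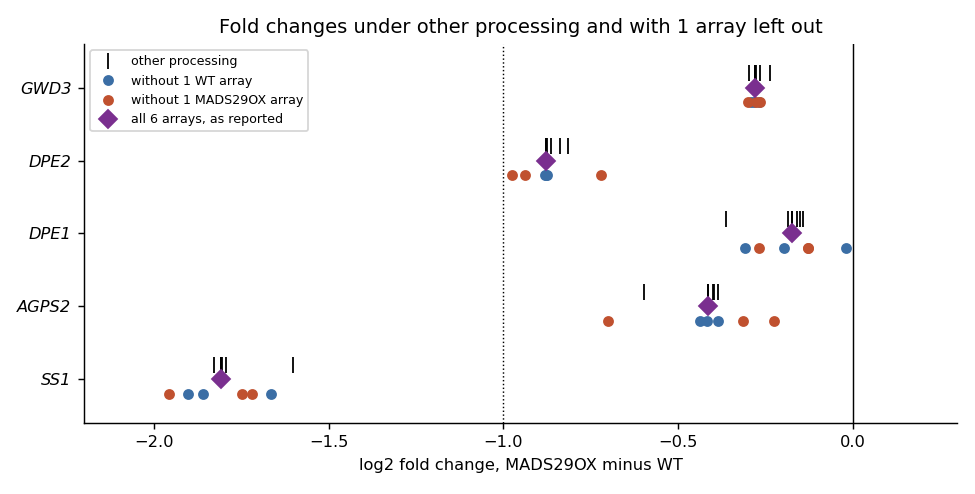
Log2 fold change (MADS29OX minus WT) of the 5 starch genes with all 6 arrays (diamonds), without 1 WT or 1 MADS29OX array (blue and red circles) and under other processing (black ticks); the dotted line marks a 2-fold decrease. All values for *SS1* lie between -1.96 and -1.60, beyond the line, and those of the other genes lie to its right.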

How the data were processed

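The authors deposited 1 linear intensity per probe set and array, made from biotin-labelled leaf RNA, with 57381 probe sets in all, including 123 controls. How they corrected background, summarised probes and normalized arrays is not given in the sources used here. Values were used as deposited. Array medians lay between 5.95 and 6.00, which is under the floor of 16, so they do not show whether expressed signals share a scale. A floor of 16 was set under the values of all probe sets other than controls before log2 transformation. Group was the sole term of a limma 3.58.1 fit (R 4.3.3; lmFit, eBayes) of the 14238 probe sets that exceeded the floor on 1 array or more, with Benjamini-Hochberg adjustment over these. The fit was tested on simulated data. Exact permutation tests used scipy 1.17.1 in Python 3.11.15. With arrays, their number limits the precision.

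Genes came from the platform annotation (22436 probe sets with 1 gene, 95 with several, the rest unnamed here) and the names of a gene table of assembly ASM3414082v1. The brightest probe set over the 6 arrays stood for a gene. The array names no genome build, so no coordinates are given. *PHP1*, *GBP* and *MADS18*, matched through unrelated synonyms, were removed from the lists by name. The genes and lists were chosen with earlier results of these data known. Named genes were *OsMADS29*, the 5 starch genes, called genes of the pathway list, the brightest gene of each of its groups without a call, and the 3 named genes most like the one with the lowest adjusted p. Alternatives covered the floor, the filter, the scaling, the prior, array weights, probe set choice, the fold limit, a replicate block and leaving out each array.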

Additional observations from a re-analysis of the deposited data

How the results depend on the processing

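Over 93 alternative values for the 5 starch genes, 0 changed sign and 90 stayed on the same side of the call. Many of these alternatives could not move the fold change, so the sign was fixed in them. Among them were the fold limit, the prior, the replicate block and, with 1 probe set per gene, the choice of probe set. With all probe sets tested, *SS1* (-1.81) lost its call (adjusted p = 0.0569), which left 0 starch genes and 0 of the pathway list called lower, and 145 genes higher and 207 lower in all. Most probe sets in that fit had no spread, which also alters the variance that limma shares between them. Without a fold limit *DPE2* (-0.88) and *GWD3* (-0.28) passed, which made 3 starch genes, 6 lower and 1 higher of the pathway list, and 1148 higher and 1519 lower genes in all, against 507 and 505. With log2 of the value plus 16, a fit that also took in all probe sets, 191 genes were higher and 240 lower. Array weights gave 3 lower genes of the pathway list (*SS1*, *SBE1* and *SSII-1*). Leaving out each array gave 1 to 3 lower genes of that list, and ranges of -1.96 to -1.66 for *SS1*, -0.70 to -0.23 for *AGPS2*, -0.31 to -0.02 for *DPE1*, -0.97 to -0.72 for *DPE2* and -0.30 to -0.27 for *GWD3*. *DPE1* gave no value with a floor or minimum mean of 32, which it does not reach. Same-numbered arrays of the groups were not paired, since their deviations correlated at 0.034, -0.045 and -0.127. With the replicate block *SS1* kept its call (adjusted p = 0.0148), while its value of -1.81 cannot move in such a balanced block.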
